A study of Mus musculus with 18 samples.

Results

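Polysome-bound RNA of LY6C myeloid-derived suppressor cells (MDSC) was compared with polysome-bound RNA of bone marrow. The comparison takes 6 of the 18 libraries of the series, which fall into 6 groups. The 3 LY6C_P libraries, numbered 2, 3 and 6, come from wild-type C57BL/6 cells. Their bone marrow was differentiated for 5 days and sorted for high Cd11b, no Ly6G and high Ly6C. The sorted cells were plated again and harvested a day later with cycloheximide, which stops elongating ribosomes on their mRNA. The 3 BM_P libraries, numbered 1, 2 and 3, come from wild-type C57BL/6 marrow flushed from femurs, after lysis of red cells in ACK buffer. Both groups of cells were spun through sucrose gradients, and the RNA of the polysome fractions was made into stranded libraries after depletion of ribosomal RNA. Nothing in the labels says whether each library is a separate culture or mouse, so the spread between libraries may be technical. The p-values take that spread from all 18 libraries of the series, within their 6 groups. The marrow came from 3 mice. The numbers of the groups name libraries and were not used to pair them. The other groups hold total RNA of both kinds of cell and both kinds of RNA from sorted LY6G MDSC.

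A polysome is an mRNA that carries several ribosomes at once, so polysomal RNA is enriched in transcripts under translation. LY6C MDSC are the monocytic kind of suppressor cell. They resemble immature monocytes and are known for restraining T cells through arginine depletion, nitric oxide, reactive oxygen, prostaglandins and checkpoint ligands. Bone marrow is a mixture of erythroid, granulocytic, monocytic, megakaryocytic and lymphoid precursors with stromal and bone-forming cells. The LY6C cells differ from it in population, culture, sorting and replating together, and these cannot be told apart here. In bulk RNA, fewer cells of a type and less of its RNA per cell cannot be told apart either.

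The LY6C_P libraries held 20313012, 11677465 and 8857832 counts and the BM_P libraries 17846803, 15125180 and 12107504. Protein-coding genes, without the Lars2 locus and mitochondrial genes, took 66.7% to 93.7% of the LY6C_P counts and 1.82% to 3.71% of the BM_P counts. Ribosomal sequence filled most of the BM_P libraries, with 31% to 43.7% in mitochondrial rRNA, against 0.409% to 4.65% in LY6C_P. Levels are CPM, the counts of a gene scaled to the size of its library, with TMM factors, which leave out extreme genes. One CPM stood for 23.9 to 103 counts in LY6C_P libraries and for 1.73 to 3.51 counts in BM_P libraries. Low levels are therefore measured far more finely in LY6C_P. Between libraries, log2 CPM correlated at 0.928 to 0.959 within LY6C_P, at 0.836 to 0.856 within BM_P and at 0.688 to 0.776 across the groups.

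Of 54838 genes, 14181 had enough counts to be tested. In LY6C_P, 2861 genes were higher (20.2%) and 1592 lower (11.2%) than in BM_P by edgeR's quasi-likelihood test at a Benjamini-Hochberg adjusted p under 0.05. The log2 differences given below are LY6C_P minus BM_P with their standard error, and the median over all genes tested was 0.52. The libraries did not overlap in 2790 of the higher and 1431 of the lower genes, where non-overlap held for 48.7% of all genes tested. Of the higher genes, 309 had 0 counts in BM_P, and 1960 had at least 10 counts over the 3 BM_P libraries. Of the lower genes, 21 had 0 counts in LY6C_P. Scaled on protein-coding genes alone, 2315 genes were higher (19.6%) and 1950 lower (16.5%), with a median of 0.16 over 11822 genes. With protein-coding counts thinned to 274914 in each library, 1244 were higher (17.1%) and 1268 lower (17.4%) of 7269 genes, with a median of 0.06. The share of calls that were higher was 64.2% in the first fit, 54.3% in the second and 49.5% in the third. Non-overlap itself was 34.7% higher and 14% lower over all genes tested. The difference between fractions, described last, was called in 0.338% of genes.

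**Figure D1:**
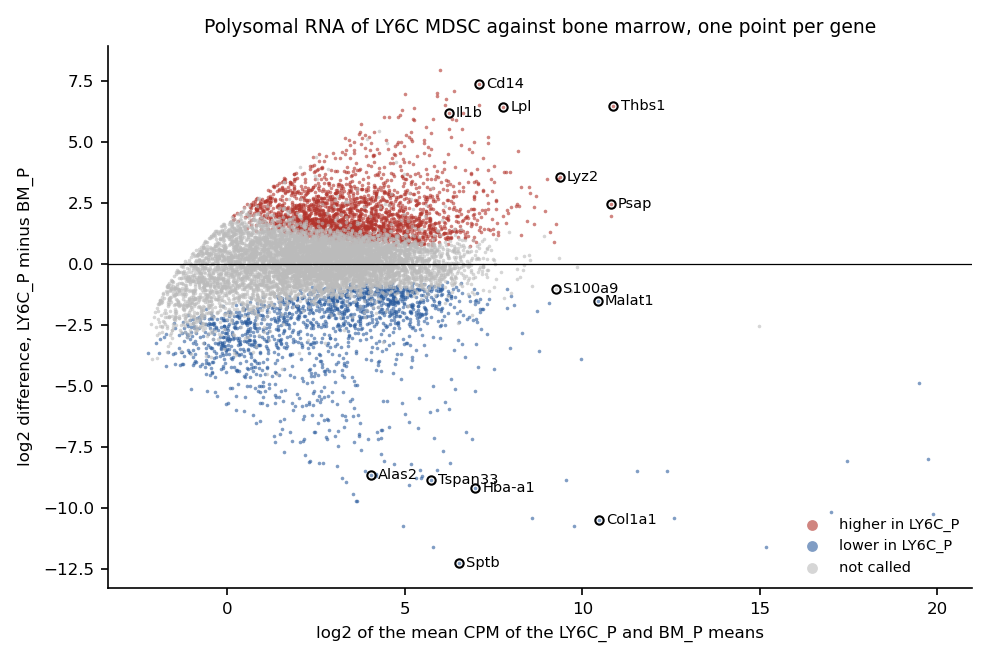
Each point is a gene with more than 3 counts in both groups of libraries, by the log2 of its mean CPM (horizontal) and its log2 difference LY6C_P minus BM_P (vertical). Red points were called higher in LY6C_P, blue points lower and grey points neither. Named genes are circled, among them Thbs1 at 6.47, Cd14 at 7.38, Col1a1 at -10.52 and Hba-a1 at -9.20.

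The antigens of the sort were read first. Itgam encodes Cd11b and had 41.6, 24.8 and 15.4 CPM in LY6C_P, in the order 2, 3 and 6, and 9.7, 5.78 and 7.38 CPM in BM_P, in the order 1, 2 and 3. The groups did not overlap, and Itgam was higher in LY6C_P (log2 difference 1.82 ± 0.55, adjusted p = 0.0165). The call was lost with thinned counts (adjusted p = 0.0731) and without LY6C_P library 2 (0.0791), BM_P library 2 (0.0726) or BM_P library 3 (0.068). Ly6c2, one of the genes of the Ly6C antigen, had 95.8, 137 and 617 CPM in LY6C_P and 14.8, 19.1 and 8.43 CPM in BM_P. Every LY6C_P library was above every BM_P library, library 6 most of all (log2 difference 4.34 ± 0.56, adjusted p = 1.1e-05). The near-identical Ly6c1 stayed at or below 3.47 CPM in all 6 libraries and was not called. Its log2 difference of -2.37 ran opposite to that of Ly6c2 (adjusted p = 0.327), and with a block on library number it was called lower (-5.05, adjusted p = 0.00374). Reads that the paralogs share make the split between these 2 genes uncertain. Ly6g, which the sort excluded, had 1.85, 4.27 and 3.13 CPM in LY6C_P and 9.7, 4.63 and 5.97 CPM in BM_P. It was low in both groups and the difference did not pass the test (log2 difference -1.17 ± 0.79, adjusted p = 0.278).

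Genes of monocyte and macrophage identity were mostly higher in LY6C_P. Of 27 listed genes 26 were tested, and 14 were higher and 2 lower, with a median log2 difference of 2.59 (2.58 where genes with 0 counts in 1 group take their bound). By sign alone, 20 log2 differences were positive and 6 negative. Apoe (-3.18), C1qa (-1.95), Cx3cr1 (-0.88) and C1qc (-0.47), named after their values were seen, were negative and not called. Cd163, also named after its values were seen and listed with the iron and heme genes, was called lower (-7.19). Lyz2, the lysozyme of monocytes and granulocytes, had 1397, 641 and 1619 CPM in LY6C_P and 108, 106 and 95.2 CPM in BM_P. The 3 BM_P libraries lay close together, all far below LY6C_P (log2 difference 3.56 ± 0.41, adjusted p = 3.07e-06). Csf1r, the receptor of macrophage colony-stimulating factor, had 329, 165 and 414 CPM in LY6C_P and 18.3, 19.1 and 24.2 CPM in BM_P (log2 difference 3.88 ± 0.43, adjusted p = 1.82e-06). Cd14, the co-receptor for bacterial lipopolysaccharide, had 107, 75.6 and 633 CPM in LY6C_P and 1.14, 1.73 and 2.11 CPM in BM_P. Library 6 stood above the other 2 LY6C_P libraries, yet the lowest of them was far above BM_P (log2 difference 7.38 ± 0.96, adjusted p = 2.34e-05). Adgre1, which encodes the macrophage antigen F4/80, had 117, 49.5 and 130 CPM in LY6C_P and 3.71, 3.47 and 5.97 CPM in BM_P (log2 difference 4.48 ± 0.59, adjusted p = 1.13e-05).

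Fcgr1, the high-affinity IgG receptor, had 3 counts over the BM_P libraries, and the pooled level in LY6C_P was 67.3 times as high (95% counting interval 23 to 326). Gpnmb, a glycoprotein of lipid-laden macrophages, had 84.1, 23.7 and 82.4 CPM in LY6C_P and 0.285, 0 and 1.05 CPM in BM_P and was also higher (adjusted p = 7.81e-06). Ccr2, the chemokine receptor of inflammatory monocytes, had 56.9, 29 and 14.4 CPM in LY6C_P and 8.84, 2.89 and 2.46 CPM in BM_P. The libraries did not overlap, but Ccr2 missed the threshold (log2 difference 2.76 ± 1.02, adjusted p = 0.0501). It was called higher under 7 alternatives, among them DESeq2 (adjusted p = 0.00596) and the 6 libraries fitted alone (0.00595). The 2 members called lower were F13a1 and Irf8, named after their values were seen. F13a1, the A chain of clotting factor XIII and a gene of marrow monocytes, had 8.13, 14.1 and 18.3 CPM in LY6C_P and 239, 117 and 103 CPM in BM_P, with no overlap (log2 difference -3.51 ± 0.42, adjusted p = 3.89e-06). Irf8, the transcription factor of monocyte and dendritic cell precursors, had 9.85, 7.24 and 19 CPM in LY6C_P and 31.4, 46.3 and 30.2 CPM in BM_P (log2 difference -1.58 ± 0.51, adjusted p = 0.0222). The Irf8 and F13a1 levels thus lay below marrow while Lyz2, Csf1r and Cd14 lay above it.

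**Figure D2:**
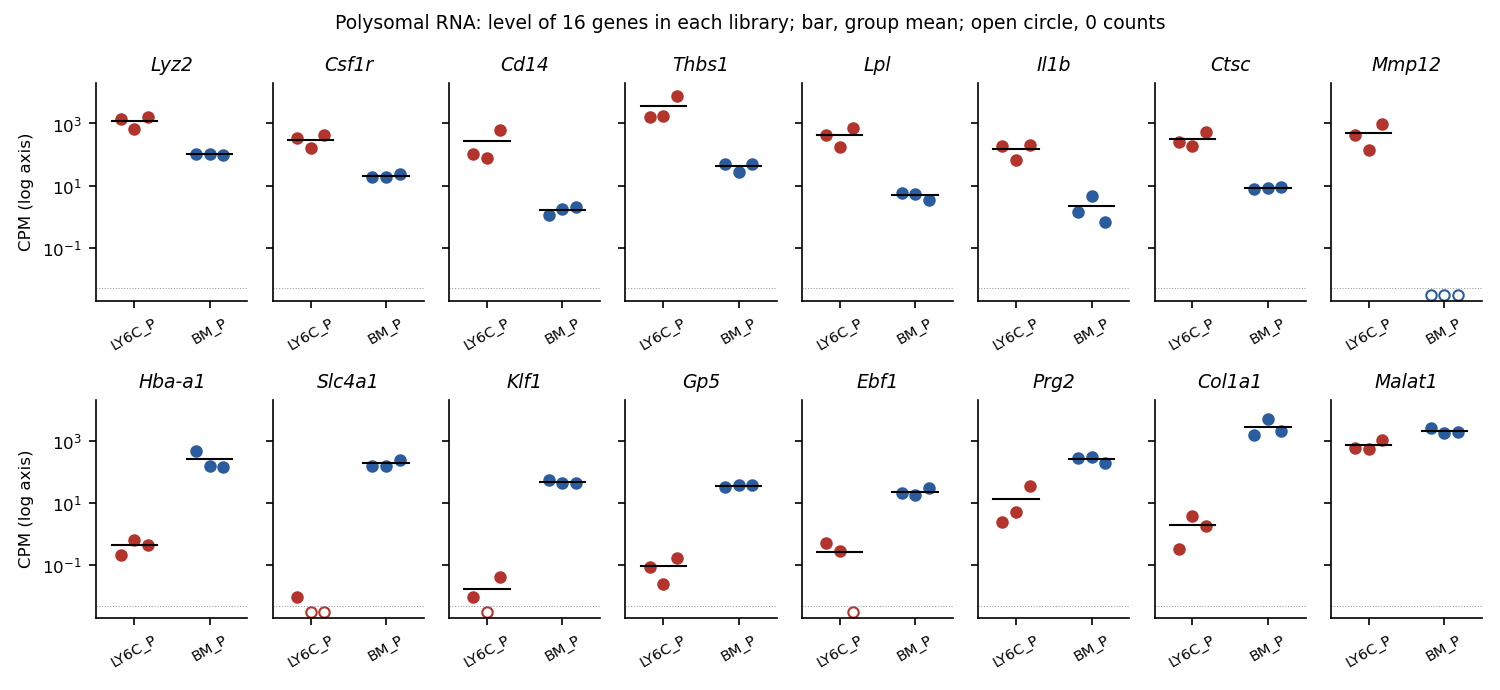
Polysomal level of 16 genes in CPM on a log axis, 1 point per library, with LY6C_P in red left of BM_P in blue and the group mean as a bar. Open circles below the dotted line are libraries with 0 counts. The upper row holds genes higher in LY6C_P, such as Mmp12 with 0 counts in BM_P, and the lower row genes lower in LY6C_P, such as Slc4a1 with 1 count over the 3 LY6C_P libraries.

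Of 21 myeloid transcription factors tested, 12 were higher in LY6C_P and 1, Irf8, was lower (median log2 difference 1.98). Mitf, a basic helix-loop-helix factor of lysosomal and macrophage genes, had 18.4, 5.79 and 11.9 CPM in LY6C_P and 0 counts in BM_P. Against 3 counts over the BM_P libraries, the upper limit that a count of 0 allows, Mitf was at least 32.3-fold higher (adjusted p = 4.46e-05). Its relative Tfec had 3 counts in BM_P and a pooled level 33.3 times as high in LY6C_P (95% counting interval 11.4 to 162). Cebpb, a C/EBP factor needed for emergency myelopoiesis, had 224, 186 and 327 CPM in LY6C_P and 23.7, 22 and 26.7 CPM in BM_P (log2 difference 3.34 ± 0.43, adjusted p = 9.65e-06). Bhlhe40, a helix-loop-helix repressor, was higher (log2 difference 4.17 ± 0.47, adjusted p = 2.14e-06). Runx1, a factor of definitive blood formation, was higher as well (log2 difference 3.32 ± 0.40, adjusted p = 4.56e-06).

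Genes by which MDSC are known to suppress T cells divided into steady and uneven ones. Of 24 listed genes 22 were tested, 13 were higher and 1 lower (median log2 difference 2.51, and 2.51 with bounds). Arg1, which breaks down arginine, had 7.82, 2.67 and 661 CPM in LY6C_P and 0 counts in all 3 BM_P libraries. Nos2, the inducible nitric oxide synthase, had 0.769, 0.939 and 371 CPM in LY6C_P and 0 counts in BM_P. In both genes library 6 held nearly all of the LY6C_P level, and neither was called (adjusted p = 0.109 for Arg1 and 0.169 for Nos2). Cybb, the catalytic subunit of the phagocyte NADPH oxidase, was even across LY6C_P, with 321, 307 and 353 CPM against 68.2, 52 and 36.2 CPM in BM_P (log2 difference 2.65 ± 0.33, adjusted p = 6.74e-06).

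Cd274, the checkpoint ligand PD-L1, had 66.4, 20.4 and 87.5 CPM in LY6C_P and 1.14, 0 and 1.05 CPM in BM_P (log2 difference 6.11 ± 0.98, adjusted p = 0.000258). Slc7a11, the cystine importer, had 112, 39.9 and 123 CPM in LY6C_P and 5.42, 2.31 and 0 CPM in BM_P (log2 difference 5.08 ± 0.79, adjusted p = 0.000168). Ptgs2, the inducible cyclooxygenase of prostaglandin synthesis, was higher (log2 difference 4.78 ± 0.85, adjusted p = 0.000485). Nt5e, the ectoenzyme CD73 that makes adenosine, had 3 counts in BM_P and a pooled level 37.2 times as high in LY6C_P (95% counting interval 12.7 to 181). The lower gene was Vsir, named after its values were seen, which encodes the checkpoint protein VISTA. It had 138, 173 and 159 CPM in LY6C_P and 318, 324 and 304 CPM in BM_P (log2 difference -1.01 ± 0.27, adjusted p = 0.00789). S100a8 and S100a9, the alarmin pair of neutrophils and monocytes, did not pass the test in the model of all libraries. S100a8 had 249, 541 and 249 CPM in LY6C_P and 173, 113 and 135 CPM in BM_P (log2 difference 1.31 ± 0.52, adjusted p = 0.0636), and S100a9 had 212, 804 and 196 CPM in LY6C_P and 1122, 705 and 607 CPM in BM_P (log2 difference -1.01 ± 0.57, adjusted p = 0.188). Library 3 was the highest LY6C_P library for both. S100a8 was called higher under 4 alternatives, DESeq2 among them (adjusted p = 0.0305), and S100a9 was called lower without library 3 (-1.96, adjusted p = 0.0121).

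Receptors for growth factors and cytokines were higher in part. Of 23 tested, 10 were higher and 2 lower (median log2 difference 1.14). Csf2rb, the shared beta chain of the GM-CSF, IL-3 and IL-5 receptors, had 426, 238 and 273 CPM in LY6C_P and 7.7, 15 and 8.08 CPM in BM_P (log2 difference 4.95 ± 0.40, adjusted p = 3.86e-08). Il1r2, the decoy receptor for IL-1, had 62, 74.1 and 46.6 CPM in LY6C_P and 3.42, 1.16 and 1.41 CPM in BM_P (log2 difference 4.83 ± 0.50, adjusted p = 8.38e-07). Epor, the erythropoietin receptor, had 1 count over LY6C_P and 16.3, 20.2 and 26.4 CPM in BM_P. Its pooled level in BM_P was 3431 times that of LY6C_P (95% counting interval 607 to 136331).

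Inflammatory cytokines stood high on the polysomes of LY6C cells. Of 19 listed 17 were tested, 9 were higher and 0 lower, with a median log2 difference of 5.25, or 2.32 where genes with 0 counts take their bound. The summed level was 631, 292 and 936 CPM in LY6C_P and 25.1, 19.7 and 7.38 CPM in BM_P. Il1b, the secreted IL-1 beta, had 182, 66.3 and 198 CPM in LY6C_P and 1.43, 4.63 and 0.703 CPM in BM_P (log2 difference 6.21 ± 0.73, adjusted p = 8.02e-06). Its natural antagonist Il1rn had 86.3, 29.6 and 65.1 CPM in LY6C_P and 1.14, 1.16 and 0 CPM in BM_P (log2 difference 6.34 ± 0.75, adjusted p = 4.5e-06). Il1a had 21.3, 7.64 and 43.6 CPM in LY6C_P and 0 counts in BM_P, which makes it at least 57.3-fold higher (adjusted p = 0.00211). Tnf, tumor necrosis factor, had 120, 55.9 and 60.9 CPM in LY6C_P and 2 counts over BM_P, for a pooled level 388 times as high (95% counting interval 107 to 3203). Library 3 was the lowest LY6C_P library for Il1b, Il1rn, Il1a and Tnf.

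Of 25 chemokine and chemokine receptor genes tested, 14 were higher and 1 lower (median log2 difference 5.93, and 5.57 with bounds). Ccl3 and Ccl4, which attract monocytes and T cells, had 0 counts in BM_P. Ccl3 had 85.2, 27.2 and 72.4 CPM in LY6C_P and was at least 166-fold higher (adjusted p = 0.000141). Ccl4 had 44.3, 19 and 47.4 CPM in LY6C_P and was at least 99.5-fold higher (adjusted p = 7.55e-06). Ccl2, the ligand of Ccr2, had 34.7, 10.7 and 144 CPM in LY6C_P and 0 counts in BM_P, at least 121-fold higher (adjusted p = 0.000286). Cxcl3, which attracts neutrophils, had 25.6, 9.29 and 320 CPM in LY6C_P and 0 counts in BM_P. It was at least 173-fold higher (adjusted p = 0.0171), and the call was lost when the 6 libraries were fitted alone. Cxcl12, the stromal chemokine that keeps stem cells in the marrow, went the other way, with 1 count over LY6C_P and 20.8, 30.6 and 24.2 CPM in BM_P. Its pooled level in BM_P was 4007 times that of LY6C_P (95% counting interval 711 to 159055).

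Immediate early genes, which cells transcribe within minutes of a stimulus, were mostly higher in LY6C_P. Of 21 listed 19 were tested, 16 were higher and 1 lower (median log2 difference 2.94). Ier3, a survival gene of the NF-kB response, had 150, 76 and 145 CPM in LY6C_P and 2 counts in BM_P, for a pooled level 531 times as high (95% counting interval 147 to 4386). Atf3, a stress-induced repressor, had 68.7, 27.6 and 61.2 CPM in LY6C_P and 2 counts in BM_P, for 234 times (interval 64.7 to 1931). Egr1, a zinc finger factor induced by growth signals, had 265, 113 and 51.6 CPM in LY6C_P and 2, 0.578 and 1.05 CPM in BM_P (log2 difference 6.76 ± 0.84, adjusted p = 2.01e-05). Egr3 had 107, 57 and 38.9 CPM in LY6C_P and 2.57, 1.16 and 1.41 CPM in BM_P (log2 difference 5.23 ± 0.80, adjusted p = 0.000131). Library 6, high for the chemokines, was the lowest LY6C_P library for Egr1 and Egr3. Dusp2, a phosphatase of MAP kinases named after its values were seen, was the lower member (log2 difference -2.41 ± 0.63, adjusted p = 0.00719).

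The feedback genes of the NF-kB pathway followed, with 16 of 20 higher and 0 lower (median log2 difference 2.38). Tnfaip3, the ubiquitin editor A20, had 51, 24.2 and 28.9 CPM in LY6C_P and 2, 1.73 and 4.22 CPM in BM_P (log2 difference 3.68 ± 0.44, adjusted p = 4.53e-06). Zfp36l1, which speeds the decay of AU-rich mRNA, had 89.3, 40.2 and 82.8 CPM in LY6C_P and 2.28, 6.94 and 3.87 CPM in BM_P (log2 difference 4.10 ± 0.56, adjusted p = 1.76e-05). Socs3, the brake on gp130 and G-CSF signalling, was among the 12 largest rises of measurable genes, with 168, 75.3 and 176 CPM in LY6C_P and 0, 0.578 and 3.87 CPM in BM_P (log2 difference 6.54 ± 0.86, adjusted p = 2.03e-05). Cdkn1a, the cell cycle inhibitor p21, was another, with 182, 106 and 522 CPM in LY6C_P and 3.71, 2.31 and 2.46 CPM in BM_P (log2 difference 6.54 ± 0.59, adjusted p = 3.71e-07).

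Sensors of microbes were higher as groups. Of 22 Toll-like receptors and adaptors 16 were higher and 0 lower (median log2 difference 2.44, and 2.32 with bounds). Tlr2, the receptor of lipoproteins, had 108, 59.8 and 57.3 CPM in LY6C_P and 0.285, 1.16 and 1.41 CPM in BM_P (log2 difference 6.40 ± 0.52, adjusted p = 9.94e-08). Tlr4, the receptor of lipopolysaccharide, was higher too (log2 difference 4.67 ± 0.58, adjusted p = 1.11e-05). Of 12 C-type lectins 11 were higher and 0 lower (median 3.51). Clec4n, the fungal receptor dectin-2, had 298, 116 and 525 CPM in LY6C_P and 3 counts over BM_P. Its pooled level was 774 times as high (95% counting interval 265 to 3755). Clec7a, dectin-1, had 69.6, 20.7 and 43 CPM in LY6C_P and 3 counts over BM_P, 146 times as high (interval 49.9 to 708). Of 11 Fc and complement receptors 9 were higher and 0 lower (median 3.00), among them C3ar1, the receptor of complement C3a, with 39, 11.7 and 132 CPM in LY6C_P and 0 counts in BM_P (at least 124-fold, adjusted p = 0.000833).

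**Figure D3:**
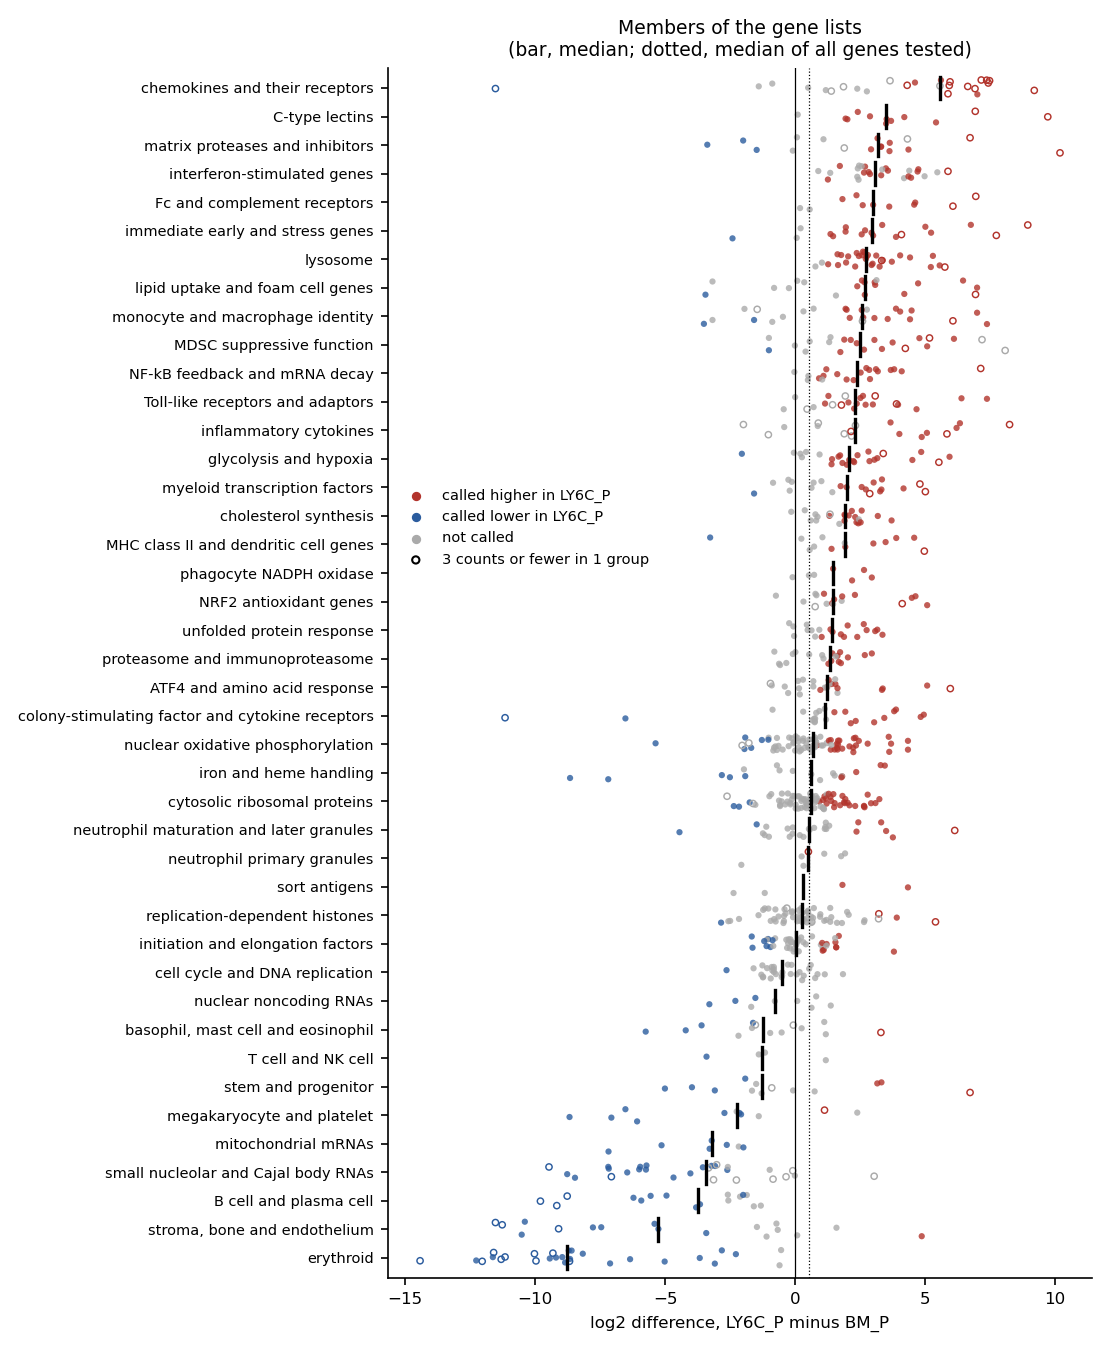
Each point is a tested member of a gene list, by its log2 difference LY6C_P minus BM_P, with genes at 0 counts in 1 group set to their bound. Red and blue mark genes called higher and lower in LY6C_P, open circles have 3 counts or fewer in 1 group, and the bar is the median of the list. Erythroid genes lie lowest (median -8.78) and chemokines highest (5.57), and the dotted line marks the median of all genes tested, 0.52.

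Nearly all listed lysosomal genes were higher in LY6C_P. The lysosome is the acid compartment in which phagocytes digest what they take up. Of 30 members, all tested, 28 were higher and 0 lower (median log2 difference 2.73), and 25 to 28 were called higher when any 1 library was left out. The summed level was 4967, 3190 and 10397 CPM in LY6C_P and 956, 1053 and 932 CPM in BM_P. Ctsc, the protease that activates granule enzymes, had 251, 182 and 517 CPM in LY6C_P and 7.7, 8.67 and 9.14 CPM in BM_P (log2 difference 5.22 ± 0.47, adjusted p = 1.54e-07). Ctsl, cathepsin L, had 87.6, 47 and 445 CPM in LY6C_P and 2.28, 4.63 and 5.62 CPM in BM_P (log2 difference 5.56 ± 1.01, adjusted p = 0.000642). Lipa, lysosomal acid lipase, had 83.7, 30.8 and 77.3 CPM in LY6C_P and 2, 2.31 and 0.703 CPM in BM_P (log2 difference 5.30 ± 0.59, adjusted p = 3.79e-06). Gla, alpha-galactosidase A, had 13.2, 8.4 and 19.2 CPM in LY6C_P and 2 counts over BM_P, a pooled level 52.3 times as high (95% counting interval 14.5 to 432). Ctsh and Mcoln1, named after their values were seen, were the 2 members not called, with log2 differences of 1.03 and 0.78.

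Many lysosomal genes carry a short palindrome bound by factors of the Mitf and Tfe family, TCACGTGA. Promoters were taken from RefSeq (GRCm38.p6) as the 250 bases before each start. Of the 22 members with a promoter there, 4 held the motif (18.2%), against 0.803% of 27025 mouse promoters, on either strand. A match describes the letters and does not show a bound site. Those of Gla, Ctsd and Atp6v1a are shown because all 3 genes were called higher in LY6C_P; Ctsd and Atp6v1a are named for the motif. The sequences are given with the motif in capitals, 5′ to 3′ on the strand of the gene. They lie at chrX:134601006-134601255, chr7:142387828-142388077 and chr16:44139260-44139509, all on the minus strand.
Gla: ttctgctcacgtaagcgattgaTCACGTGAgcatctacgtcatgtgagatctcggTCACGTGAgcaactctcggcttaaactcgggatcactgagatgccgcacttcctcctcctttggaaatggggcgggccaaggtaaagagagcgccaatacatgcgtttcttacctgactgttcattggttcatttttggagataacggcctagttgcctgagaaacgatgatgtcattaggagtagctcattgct
Ctsd: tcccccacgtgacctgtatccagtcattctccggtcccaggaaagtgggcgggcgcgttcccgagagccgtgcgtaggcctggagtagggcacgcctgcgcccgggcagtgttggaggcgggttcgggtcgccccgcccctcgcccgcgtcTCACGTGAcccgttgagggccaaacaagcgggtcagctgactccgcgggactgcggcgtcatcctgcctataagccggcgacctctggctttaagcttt
Atp6v1a: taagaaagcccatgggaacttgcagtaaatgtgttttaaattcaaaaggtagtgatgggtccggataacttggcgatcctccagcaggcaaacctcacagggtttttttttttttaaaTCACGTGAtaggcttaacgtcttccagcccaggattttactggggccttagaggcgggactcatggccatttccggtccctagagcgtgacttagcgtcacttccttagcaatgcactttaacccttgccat
The Gla promoter held the motif at 2 positions, 228 and 195 bases before the start, and the other 2 promoters at 1 position each. Ctsd, the protease cathepsin D, had 177, 86.4 and 333 CPM in LY6C_P and 20, 20.8 and 16.9 CPM in BM_P (log2 difference 3.37 ± 0.52, adjusted p = 6.39e-05). Atp6v1a, a subunit of the proton pump that acidifies lysosomes, had 82.4, 92.2 and 134 CPM in LY6C_P and 71.9, 27.2 and 28.1 CPM in BM_P (log2 difference 1.27 ± 0.39, adjusted p = 0.018). Its groups did not overlap, though BM_P library 1 came close to the lowest LY6C_P library. Mcoln1, the fourth promoter with the motif, was not called.

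Genes of lipid handling and matrix breakdown contained several of the largest differences. Lpl, the enzyme that frees fatty acids from lipoproteins, had 425, 173 and 697 CPM in LY6C_P and 5.99, 5.2 and 3.51 CPM in BM_P (log2 difference 6.46 ± 0.71, adjusted p = 2.14e-06). Of 19 lipid uptake and foam cell genes tested, 11 were higher and 1 lower (median log2 difference 2.67), the lower being the fatty acid binding protein Fabp4, named after its values were seen (log2 difference -3.45 ± 0.86, adjusted p = 0.00472). Olr1, the receptor of oxidised lipoprotein, had 12.6, 7.34 and 26.9 CPM in LY6C_P and 1 count over BM_P (108 times, 95% counting interval 19.4 to 4279). Mmp12, the macrophage elastase, had 428, 138 and 941 CPM in LY6C_P and 0 counts in BM_P, at least 1167-fold higher (adjusted p = 3.48e-06). Thbs1, the matrix glycoprotein thrombospondin 1, had 1633, 1724 and 7805 CPM in LY6C_P and 49.6, 26.6 and 49.5 CPM in BM_P (log2 difference 6.47 ± 0.94, adjusted p = 5.67e-05). Library 6 held the highest level of Lpl, Mmp12 and Thbs1.

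Of 17 matrix proteases and inhibitors tested, 9 were higher and 3 lower (median 3.30, and 3.17 with bounds). Plau, the urokinase that activates plasminogen, had 52.2, 36.1 and 55.3 CPM in LY6C_P and 3.42, 0 and 2.81 CPM in BM_P (log2 difference 4.36 ± 0.64, adjusted p = 6.57e-05). Mmp19 had 36.6, 22.3 and 59.2 CPM in LY6C_P and 3 counts over BM_P (98.1 times, 95% counting interval 33.6 to 476). The lower members, named after their values were seen, were the neutrophil metalloprotease Mmp25 (log2 difference -1.48 ± 0.46, adjusted p = 0.0184), the inhibitor Timp3 (log2 difference -3.38 ± 0.74, adjusted p = 0.00171) and the sheddase Adam10 (45.4, 25.3 and 18 CPM in LY6C_P and 95.8, 115 and 145 CPM in BM_P, adjusted p = 0.000177).

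Among the remaining genes at 0 counts in BM_P with the highest LY6C_P levels were Saa3, Ly6i and Procr. Saa3, an acute-phase apolipoprotein, had 29.6, 21.8 and 510 CPM in LY6C_P, at least 261-fold higher (adjusted p = 0.0113). Ly6i, a gene of the Ly6 family, had 40.4, 17.3 and 172 CPM, at least 145-fold higher (adjusted p = 0.000154). Procr, the receptor of activated protein C, had 20.1, 11.8 and 167 CPM, at least 106-fold higher (adjusted p = 0.00193). All 3 were highest in library 6. In the fit of the 6 libraries alone, Saa3 and Procr lost the call. Saa3 and Ly6i have close paralogs, so their counts are uncertain. Other large rises of measurable genes were the arginine transporter Slc7a2 (log2 difference 7.11 ± 1.63, adjusted p = 0.00549), the pentraxin Ptx3 (log2 difference 6.19 ± 1.14, adjusted p = 0.00106), the protease inhibitor Spint1 (log2 difference 5.97 ± 0.53, adjusted p = 2.76e-07) and the lipoprotein-associated phospholipase Pla2g7 (log2 difference 5.93 ± 0.83, adjusted p = 4e-05).

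Genes of sugar breakdown and of the hypoxia response were higher in LY6C_P in 19 of 25 cases and lower in 1 (median log2 difference 2.08). Slc2a1, the glucose carrier GLUT1, had 71.6, 66.1 and 334 CPM in LY6C_P and 3.71, 0.578 and 2.81 CPM in BM_P (log2 difference 5.94 ± 0.70, adjusted p = 4.53e-06). Egln3, an oxygen-sensing prolyl hydroxylase, had 23, 29.7 and 102 CPM in LY6C_P and 3.14, 1.16 and 0.703 CPM in BM_P (log2 difference 4.85 ± 0.71, adjusted p = 4.72e-05). P4ha1, a collagen prolyl hydroxylase, had 20.9, 15.2 and 112 CPM in LY6C_P and 2.28, 3.47 and 1.05 CPM in BM_P (log2 difference 4.51 ± 0.88, adjusted p = 0.000887). Slc2a3, the carrier GLUT3, was lower and is named after its values were seen (log2 difference -2.05 ± 0.60, adjusted p = 0.0146). Library 6 was highest for Slc2a1, Egln3 and P4ha1. Without it 12 members were higher and 0 lower, and without BM_P library 3 also 12 were higher.

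Interferon-stimulated genes rested on library 6 more than any list above. Of 26 tested, 14 were higher and 0 lower (median log2 difference 3.09). The summed level was 445, 374 and 2726 CPM in LY6C_P and 174, 156 and 161 CPM in BM_P, so library 6 lay 6.65 times above the mean of the other 2 LY6C_P libraries. Without library 6, 5 were higher (median 1.53), and 6 to 10 were higher without 1 BM_P library. Isg15, a ubiquitin-like modifier, had 22.2, 18.2 and 265 CPM in LY6C_P and 5.42, 4.63 and 1.41 CPM in BM_P (log2 difference 4.74 ± 1.19, adjusted p = 0.00703). Oas2, a sensor of double-stranded RNA, had 20.6, 23.9 and 62.6 CPM in LY6C_P and 1.14, 1.16 and 1.76 CPM in BM_P (log2 difference 4.71 ± 0.85, adjusted p = 0.000434). Ifit1, which binds foreign mRNA caps, had 8.7, 7.13 and 83 CPM in LY6C_P and 1.43, 1.73 and 1.41 CPM in BM_P (log2 difference 4.46 ± 1.41, adjusted p = 0.0257). The calls of Isg15 and Ifit1 were lost under other settings, for Ifit1 without library 6 among them (2.44, adjusted p = 0.152). What set library 6 apart was not tested.

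Stress responses of the secretory pathway were higher in part. Of 20 genes of the unfolded protein response 12 were higher and 0 lower (median log2 difference 1.40). Pdia3, a protein disulfide isomerase, had 133, 179 and 370 CPM in LY6C_P and 22.3, 22 and 22.1 CPM in BM_P (log2 difference 3.36 ± 0.44, adjusted p = 1.11e-05). Sdf2l1, a cofactor of the chaperone BiP, had 31.7, 38.3 and 36.3 CPM in LY6C_P and 5.42, 1.16 and 4.57 CPM in BM_P (log2 difference 3.16 ± 0.42, adjusted p = 1.52e-05). The motif TGACGTGG was in 0 of the 17 promoters of this list found in RefSeq, and in 0.496% of all promoters. Of 25 genes of the ATF4 and amino acid response 10 were higher and 0 lower (median 1.24, and 1.22 with bounds), 5 without BM_P library 3 and 4 with thinned counts. Slc3a2, the heavy chain of several amino acid carriers, was higher (log2 difference 3.37 ± 0.50, adjusted p = 4.77e-05). Of 17 NRF2 antioxidant genes 9 were higher and 0 lower (median 1.46), with Prdx1, a peroxide scavenger, at 360, 141 and 1186 CPM in LY6C_P and 35.4, 21.4 and 11.2 CPM in BM_P (log2 difference 4.63 ± 0.68, adjusted p = 5.17e-05).

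Antigen presentation genes were higher in part, and by sign alone 12 log2 differences were positive and 1 negative. Of 17 genes of MHC class II and dendritic cells 13 were tested, 7 were higher and 1 lower (median log2 difference 1.91). Cd74, the invariant chain, had 264, 188 and 501 CPM in LY6C_P and 19.4, 47.4 and 19.7 CPM in BM_P (log2 difference 3.48 ± 0.56, adjusted p = 9.75e-05). Itgax, the integrin CD11c, had 96, 43.4 and 130 CPM in LY6C_P and 3.71, 2.31 and 4.92 CPM in BM_P (log2 difference 4.58 ± 0.64, adjusted p = 4.33e-05). Cd86, a costimulatory ligand, was higher (log2 difference 3.89 ± 0.78, adjusted p = 0.000775). Zbtb46, a transcription factor of classical dendritic cells named after its values were seen, had 1.31, 1.09 and 0.418 CPM in LY6C_P and 8.84, 10.4 and 8.78 CPM in BM_P, with no overlap (log2 difference -3.27 ± 0.60, adjusted p = 0.000374).

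Erythroid genes made up the other pole. Red cell precursors build haemoglobin, a spectrin skeleton and band 3, and remain in marrow after lysis of mature red cells. Of 30 listed genes 28 were tested, 0 were higher and 26 lower (median log2 difference -8.91, and -8.78 with bounds). The summed level was 73.2, 115 and 58.9 CPM in LY6C_P and 2153, 1442 and 1892 CPM in BM_P. Tfrc and Nfe2, which other cells also express, were the 2 not called, with log2 differences of -0.60 and -0.54; both are named after their values were seen. The count of 26 lower genes held without any 1 of the 6 libraries.

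Slc4a1, the band 3 anion exchanger, had 159, 158 and 246 CPM in BM_P and 1 count over the 3 LY6C_P libraries. Its pooled level in BM_P was 31478 times that of LY6C_P (95% counting interval 5641 to 1244107). Sptb, beta spectrin, had 0.0487, 0 and 0.0418 CPM in LY6C_P and 161, 150 and 238 CPM in BM_P (log2 difference -12.27 ± 0.78, adjusted p = 1.06e-09). Hba-a1, an alpha globin, had 0.214, 0.66 and 0.459 CPM in LY6C_P and 470, 149 and 139 CPM in BM_P (log2 difference -9.20 ± 1.52, adjusted p = 0.000379). Alas2, the erythroid enzyme that starts heme synthesis, had 0.0389, 0.178 and 0.0418 CPM in LY6C_P and 31.7, 23.1 and 44.6 CPM in BM_P (log2 difference -8.66 ± 0.85, adjusted p = 4.84e-07). Hba-a2 (log2 difference -8.71 ± 1.07, adjusted p = 1.48e-05) and Hbb-bt (log2 difference -8.60 ± 0.82, adjusted p = 3.15e-07) were lower as well, and each globin has a near-identical copy that makes its own share uncertain. Among genes with 0 counts in LY6C_P, the red cell pyruvate kinase Pklr was at least 1880-fold lower, the Kell antigen Kel at least 1000-fold, carbonic anhydrase Car1 at least 1044-fold and the Rhesus antigen Rhd at least 1006-fold (adjusted p = 9.89e-07, 9.25e-07, 6.93e-06 and 7.23e-05 in that order). Sowaha and Btnl10 followed at no less than 1746-fold and 671-fold lower.

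GATA factors, which direct erythroid transcription, bind sites such as AGATAA. Of 19 erythroid members with a RefSeq promoter, 6 held AGATAA on either strand (31.6%), against 10.2% of all promoters. The motif CCACACCC, of the kind Klf1 binds, was in 1 of the 19 (5.26%, against 3.22% of all promoters). Among the 6 members with AGATAA, Rhd, Epb42 and Epor had the largest absolute log2 differences. They had 0, 0 and 1 counts in LY6C_P. Other members with 0 or 1 counts there, such as Car1 and Slc4a1, were not among those 6. The promoters of Rhd, Epb42 and Epor are shown. They lie at chr4:134864286-134864535 on the plus strand and at chr2:121036878-121037127 and chr9:21963577-21963826 on the minus strand. Capitals mark the motif, which reads TTATCT where it lies on the opposite strand.
Rhd: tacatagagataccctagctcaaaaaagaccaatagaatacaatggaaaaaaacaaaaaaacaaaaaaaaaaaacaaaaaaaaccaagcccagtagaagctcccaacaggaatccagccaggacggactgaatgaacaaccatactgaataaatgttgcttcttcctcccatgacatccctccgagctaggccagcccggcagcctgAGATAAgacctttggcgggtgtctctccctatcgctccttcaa
Epb42: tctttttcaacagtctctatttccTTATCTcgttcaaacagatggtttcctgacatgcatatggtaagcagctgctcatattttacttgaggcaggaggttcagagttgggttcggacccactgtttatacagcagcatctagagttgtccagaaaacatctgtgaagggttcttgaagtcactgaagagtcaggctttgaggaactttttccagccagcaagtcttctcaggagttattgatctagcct
Epor: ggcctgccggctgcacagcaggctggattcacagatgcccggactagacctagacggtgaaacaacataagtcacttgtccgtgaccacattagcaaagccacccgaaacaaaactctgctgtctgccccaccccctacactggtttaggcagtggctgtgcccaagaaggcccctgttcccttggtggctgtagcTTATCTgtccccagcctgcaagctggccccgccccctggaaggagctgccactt
The motif began 43 bases before the start in Rhd, 226 in Epb42 and 54 in Epor. Epb42, a membrane protein of red cells named for the motif, had 12, 12.7 and 10.2 CPM in BM_P and 0 counts in LY6C_P, at least 637-fold lower (adjusted p = 1.11e-05). Rhd had 24, 8.09 and 22.5 CPM in BM_P, with library 2 the lowest.

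**Figure D4:**
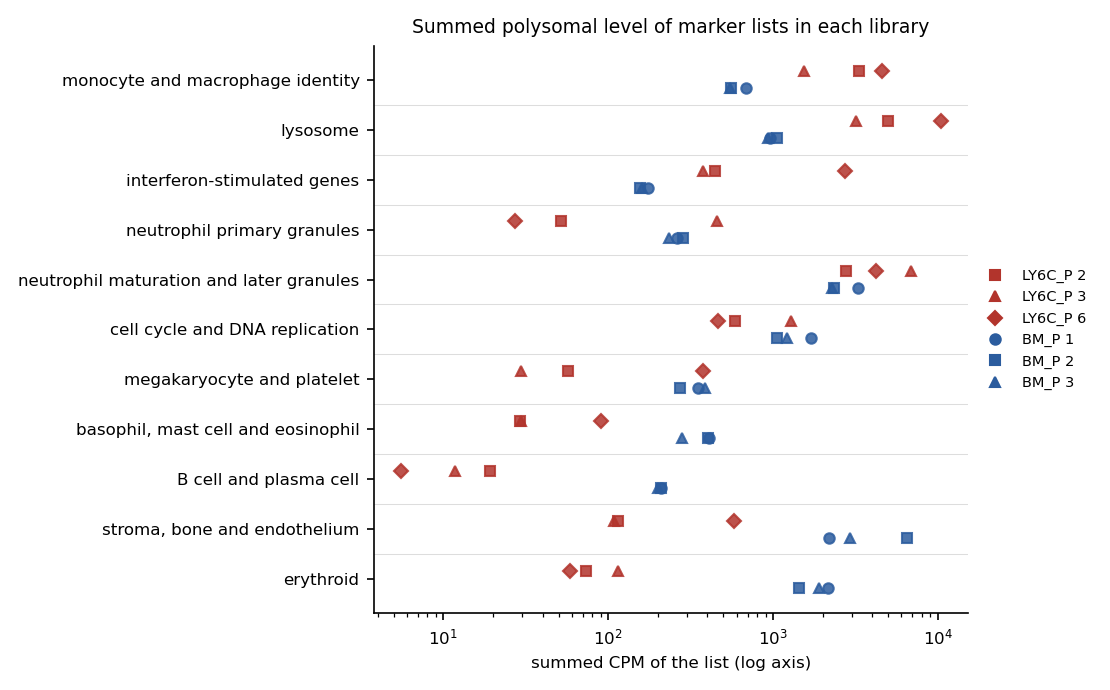
Summed CPM of 11 gene lists in each library on a log axis, with LY6C_P in red above BM_P in blue and the shape of the point giving the library number. Erythroid genes sum to 58.9 to 115 CPM in LY6C_P and 1442 to 2153 CPM in BM_P. LY6C_P library 3 lies apart in primary granule genes and library 6 in interferon-stimulated and platelet genes.

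Markers of other marrow lineages were lower in LY6C_P to differing degrees. The list of B lymphocyte and plasma cell markers had 20 members, of which 16 were tested, 0 higher and 10 lower (median log2 difference -3.73), and the summed level was 19.2, 11.8 and 5.55 CPM in LY6C_P and 208, 208 and 201 CPM in BM_P. Ebf1, a factor that sets B cell fate, had 0.526, 0.279 and 0 CPM in LY6C_P and 20.8, 18.5 and 29.9 CPM in BM_P (log2 difference -6.22 ± 1.00, adjusted p = 0.000155). Rag1, the recombinase of antigen receptor genes, was lower (log2 difference -5.56 ± 0.84, adjusted p = 5.11e-05), as was Pax5 (log2 difference -4.95 ± 1.06, adjusted p = 0.002). Ebf1, Rag1 and Pax5 were lowest in LY6C_P library 6. Of 18 T and NK cell genes 4 had enough counts, and Cd3d was lower, named after its values were seen (log2 difference -3.41 ± 0.72, adjusted p = 0.00156).

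Of 16 megakaryocyte and platelet genes 11 were tested, 1 was higher and 7 lower (median -2.25). Gp5, a platelet glycoprotein, had 0.0876, 0.0254 and 0.167 CPM in LY6C_P and 32.8, 36.4 and 39 CPM in BM_P (log2 difference -8.68 ± 0.80, adjusted p = 2.18e-07). Itga2b, the platelet integrin alpha IIb, had 0.915, 1.12 and 2.71 CPM in LY6C_P and 118, 80.4 and 115 CPM in BM_P (log2 difference -6.08 ± 0.82, adjusted p = 2.99e-05). Tubb1, the platelet beta tubulin, was lower (log2 difference -7.07 ± 0.56, adjusted p = 3.62e-08). The summed level of the list was 57.4, 29.4 and 376 CPM in LY6C_P and 350, 274 and 385 CPM in BM_P. Library 6 reached the marrow range through Pf4, a platelet chemokine named after its values were seen, with 30, 11.9 and 315 CPM in LY6C_P and 23.7, 17.3 and 26.7 CPM in BM_P (log2 difference 2.39 ± 1.12, adjusted p = 0.12).

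Eosinophil and basophil genes were lower in part, with 4 of 14 tested genes lower and 1 higher (median -0.74, and -1.25 with bounds). By sign alone, 6 log2 differences were positive and 8 negative. The higher member was Siglecf, named after its values were seen, with 2 counts over BM_P (log2 difference 3.30). Prg2, the eosinophil major basic protein, had 2.45, 4.95 and 34.1 CPM in LY6C_P and 272, 298 and 195 CPM in BM_P (log2 difference -4.21 ± 1.00, adjusted p = 0.00462). Prss34, a basophil protease, had 3.12, 1.57 and 2.8 CPM in LY6C_P and 24.5, 47.4 and 20.4 CPM in BM_P (log2 difference -3.60 ± 0.86, adjusted p = 0.00417). Of 13 stem and progenitor genes 3 were higher and 4 lower, and the median of -1.29 turned to 0.27 with thinned counts over 6 genes. Sox4 was lower (log2 difference -3.97 ± 0.75, adjusted p = 0.000622). Ly6a, the stem cell antigen Sca-1 that interferon also induces, was higher (log2 difference 3.16 ± 0.88, adjusted p = 0.0118), mostly through library 6 at 205 CPM. Its call was lost without library 6 (1.69, adjusted p = 0.0793), in the 6 libraries alone (0.142) and with the block (0.0797). The summed level of the stem and progenitor list was 149, 106 and 448 CPM in LY6C_P and 122, 162 and 121 CPM in BM_P. Over the lists of other cell types, 4 erythroid members and 1 stromal member had 0 counts in LY6C_P. The part of other cells in the remaining results was not tested.

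Stroma and bone genes summed to far less in LY6C_P than in marrow. Of 25 listed 17 were tested, 1 was higher and 10 lower (median -5.26, and -5.26 with bounds), and the sum was 114, 108 and 577 CPM in LY6C_P and 2180, 6463 and 2933 CPM in BM_P. Col1a1, the main collagen of bone, had 0.331, 3.66 and 1.84 CPM in LY6C_P and 1541, 4845 and 2088 CPM in BM_P (log2 difference -10.52 ± 1.11, adjusted p = 2.79e-06). Col1a2, its partner chain, had 0.0487, 0.686 and 1.13 CPM in LY6C_P and 413, 1319 and 573 CPM in BM_P (log2 difference -10.40 ± 1.65, adjusted p = 0.000263). Both were highest in BM_P library 2. Col6a1 had 2 counts over LY6C_P, and its pooled level in BM_P was 3195 times that of LY6C_P (95% counting interval 877 to 26499). Spp1, osteopontin, which macrophages also make, was the higher member and is named after its values were seen, with 67.3, 45.7 and 439 CPM in LY6C_P and 11.4, 4.05 and 2.81 CPM in BM_P (log2 difference 4.87 ± 0.83, adjusted p = 0.000305).

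Neutrophil genes showed no common direction. Of 7 primary granule genes tested 1 was higher and 0 lower, and the median of 1.12 (0.51 with bounds) turned to -0.70 without LY6C_P library 3. Their summed level was 51.9, 454 and 27.3 CPM in LY6C_P and 263, 283 and 235 CPM in BM_P, so library 3 lay 11.5 times above the mean of the other 2. Mpo, myeloperoxidase, named after its values were seen, had 13.8, 120 and 2.71 CPM in LY6C_P and 211, 214 and 148 CPM in BM_P (log2 difference -2.07 ± 1.17, adjusted p = 0.2). Of 26 genes of neutrophil maturation and later granules 6 were higher and 2 lower (median 0.55, and -0.04 with thinned counts). Lcn2, the siderophore-binding lipocalin, had 221, 294 and 779 CPM in LY6C_P and 38.5, 42.8 and 14.8 CPM in BM_P (log2 difference 3.76 ± 0.52, adjusted p = 2.03e-05). Chil3, a chitinase-like protein of myeloid cells, had 446, 1486 and 889 CPM in LY6C_P and 106, 69.4 and 73.4 CPM in BM_P (log2 difference 3.50 ± 0.57, adjusted p = 0.000115). Retnlg, a resistin-like protein of mature neutrophils, had 1.64, 3.25 and 1.8 CPM in LY6C_P and 67.9, 31.8 and 45.3 CPM in BM_P, with no overlap (log2 difference -4.45 ± 0.65, adjusted p = 4.88e-05). What set library 3 apart was not tested.

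Few cell division genes passed the test. Of 30 tested, 0 were higher and 1 lower (median -0.51). With the 6 libraries fitted alone 7 were lower (median -0.70), where 1467 of all 11160 genes were lower, with thinned counts 3 of 29 (median -1.01), and with a replicate block the median was 0.32. The summed level was 589, 1276 and 464 CPM in LY6C_P and 1692, 1057 and 1223 CPM in BM_P, with library 3 within the marrow range and libraries 2 and 6 below it. Tk1, the thymidine kinase of S phase, had 4.52, 11.3 and 5.64 CPM in LY6C_P and 67.6, 28.9 and 36.5 CPM in BM_P (log2 difference -2.64 ± 0.75, adjusted p = 0.0123), and its call was lost without LY6C_P library 2. Of 58 replication-dependent histone genes 3 were higher and 1 lower (median 0.28, and -0.41 without library 3), and near-identical copies make single histone genes uncertain.

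Initiation and elongation factors split differently with the scaling. Of 42 initiation and elongation factors 9 were higher (21.4%) and 7 lower (16.7%), against 20.2% and 11.2% of all genes tested (median 0.02). With thinned counts 2 were higher and 11 lower of 41 (median -0.41), and with protein-coding genes alone 8 were higher and 9 lower (median -0.19). Over all genes, 17.1% were higher and 17.4% lower with thinned counts, and 19.6% and 16.5% with protein-coding genes alone. Eif2ak2, the kinase PKR that halts initiation on double-stranded RNA, had 20.3, 13.5 and 22.7 CPM in LY6C_P and 2.28, 1.73 and 0 CPM in BM_P (log2 difference 3.80 ± 0.60, adjusted p = 7.37e-05). Eif3a, the largest subunit of initiation factor eIF3, had 52.1, 81.8 and 99.9 CPM in LY6C_P and 258, 257 and 213 CPM in BM_P (log2 difference -1.64 ± 0.29, adjusted p = 0.000263). Eif5b, which joins the ribosomal subunits, had 11.9, 11.1 and 15.1 CPM in LY6C_P and 46.8, 41.1 and 33.7 CPM in BM_P (log2 difference -1.67 ± 0.28, adjusted p = 0.000162). The groups did not overlap for any of these 3. Of 83 cytosolic ribosomal protein genes 26 were higher and 3 lower (median 0.65, and 0.60 with bounds), or 17 and 3 of 79 with thinned counts (median 0.26). Rpl27, a protein of the large ribosomal subunit, was among the higher ones (log2 difference 3.24 ± 0.49, adjusted p = 5.57e-05). The share of ribosomal protein genes called higher with thinned counts compares with 17.1% of all genes called higher there.

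Of 13 noncoding RNAs, nuclear ones and host genes of small nucleolar RNAs together, 9 were tested, 0 were higher and 3 lower (median -0.78). Malat1, a long noncoding RNA of the nucleus, had 574, 528 and 1043 CPM in LY6C_P and 2480, 1823 and 1884 CPM in BM_P (log2 difference -1.53 ± 0.42, adjusted p = 0.00845). Neat1, Kcnq1ot1, Rn7sk and Snhg1, named after their values were seen, had log2 differences of 0.08, 0.63, 0.81 and 1.37 and were not called. Of 150 small nucleolar and Cajal body RNAs 28 had enough counts, 0 were higher and 17 lower (median -3.44). Snora57 had 0.0389, 0.482 and 0.125 CPM in LY6C_P and 91.9, 70 and 102 CPM in BM_P (log2 difference -8.77 ± 1.21, adjusted p = 5.98e-05). Of 13 mitochondrial mRNAs 7 were tested, 0 were higher and 6 lower (median -3.21). mt-Nd5, a subunit of respiratory complex I, had 4.41, 4.75 and 5.01 CPM in LY6C_P and 123, 185 and 191 CPM in BM_P (log2 difference -5.14 ± 0.49, adjusted p = 2.75e-07). Lars2 and Mir6236, loci that hold sequence resembling ribosomal RNA, were among the 12 largest falls of measurable genes, with Lars2 at 140, 300 and 249 CPM in LY6C_P and 219019, 413872 and 159058 CPM in BM_P. The RNAs called lower here were higher in BM_P, as was the ribosomal share of the libraries given above. Within LY6C_P, in the order 2, 3 and 6, mitochondrial rRNA took 0.409%, 2.12% and 4.65% of counts. The mitochondrial mRNAs summed to 65.2, 55.3 and 33 CPM in the same libraries. The part of the ribosomal share in these differences was not tested. Of 75 nuclear genes of oxidative phosphorylation, 25 were higher (33.3%) and 6 lower (8%), with a median of 0.75, or 0.68 with bounds. Over all genes tested 20.2% were higher and 11.2% lower. Without BM_P library 3, 11 were higher and 6 lower, where 2050 of all 14739 genes were higher. With thinned counts it was 9 and 7 of 59, against 17.1% higher and 17.4% lower over all genes there. Cox7c, a subunit of cytochrome oxidase, was higher (log2 difference 4.34 ± 0.62, adjusted p = 2.92e-05).

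Per kilobase of exon, which allows levels of different genes to be compared, the 10 protein-coding genes with the highest mean CPM in LY6C_P ranked differently than by CPM. Psap, the precursor of lysosomal saposins, led with 1096 CPM per kb in LY6C_P and 201 CPM per kb in BM_P. Actb followed with 1065 CPM per kb in LY6C_P and 272 in BM_P, and Lyz2 with 926 in LY6C_P and 78.3 in BM_P. Thbs1 and Chil3 reached 613 and 576 CPM per kb in LY6C_P, and 6.9 and 50.9 in BM_P. The long genes Rnf213, Plec, Myh9 and Syne1 lay between 20.1 and 69.5 CPM per kb in LY6C_P. Myh9, nonmuscle myosin heavy chain, was the member of the 10 that was not called (log2 difference -0.12 ± 0.31, adjusted p = 0.799). The class I antigen H2-D1 lost its call under 10 alternatives, Plec under 5 and Rnf213 with voom. Without LY6C_P library 6 the log2 difference was 0.40 for H2-D1 (adjusted p = 0.493) and 0.57 for Plec (0.259).

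The polysomal comparison was set beside that of total RNA from the same kinds of cell to ask where the fractions differ. BM total RNA had few usable counts, with 1 CPM standing for 0.472 to 0.611 counts, against 18 to 110 counts in LY6C total RNA. Of the genes called in polysomal RNA, 1786 were higher and 772 lower in both fractions and 7 went in opposite directions, out of 3963 called in total RNA. The difference between the fractions, tested as an interaction in the same edgeR model, was called higher in 12 genes (0.0846%) and lower in 36 (0.254%), with 1962 at an unadjusted p under 0.05. Among the 4071 genes with at least 10 counts in each of the 4 groups, 12 were called. Same-numbered polysomal and total libraries deviated together in LY6C (r = 0.70, 0.68 and 0.60) but not in BM (0.03, 0.01 and 0.00). With each such pair as a block, an alternative added after seeing the data, 62 genes were higher and 102 lower, and 41 of the 48 calls without the block were called the same way.

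Tnfrsf14, a receptor for the ligands LIGHT and BTLA, showed the kind of difference seen. Its polysomal level was 5.75, 8.66 and 7.56 CPM in LY6C_P and 34.2, 35.8 and 51.3 CPM in BM_P. Its total level was 5.88, 12.1 and 13.8 CPM in LY6C total RNA and 390, 1129 and 645 CPM in BM total RNA. The log2 difference was -2.47 in polysomal and -6.10 in total RNA, and LY6C levels were close in both fractions while the BM level was far higher in total RNA. Optn, the autophagy receptor optineurin, had a log2 difference of -3.22 in polysomal and -6.33 in total RNA. In the other direction, Ncf1, a cytosolic subunit of the NADPH oxidase, had 120, 179 and 117 CPM in LY6C_P and 91, 99.4 and 98 CPM in BM_P. In total RNA Ncf1 had 123, 198 and 141 CPM in LY6C and 38.1, 16.4 and 20.7 CPM in BM. The log2 difference of Ncf1 was 0.53 in polysomal RNA and 2.64 in total RNA, and the adjusted p of their difference was 0.048.

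**Figure D5:**
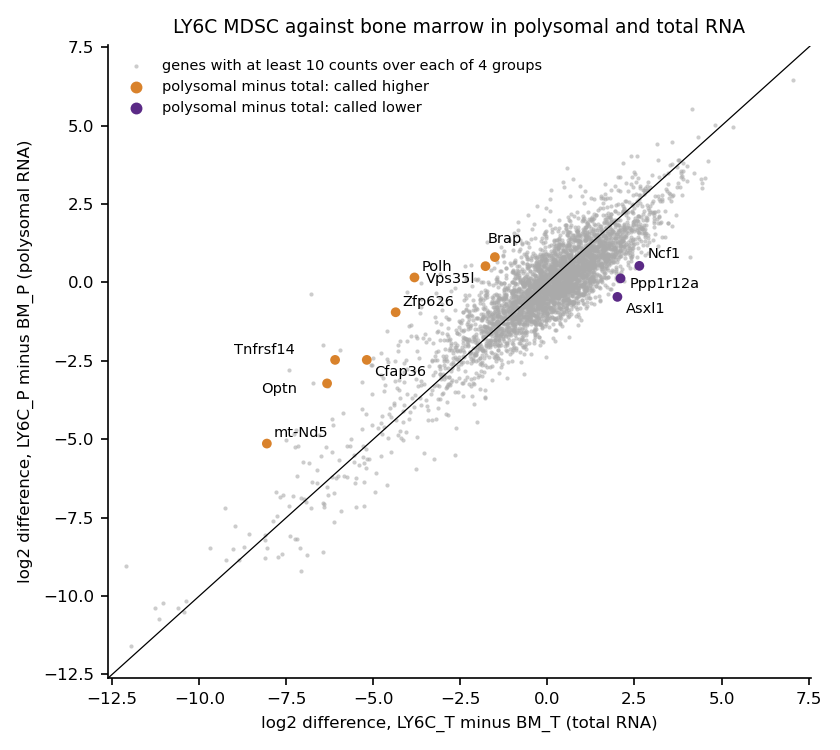
Each grey point is 1 of the 4071 genes with at least 10 counts over each of 4 groups, by its log2 difference LY6C minus BM in total RNA (horizontal) and in polysomal RNA (vertical). The line marks equal values. Orange genes, such as Tnfrsf14 (-2.47 against -6.10), and purple genes, such as Ncf1 (0.53 against 2.64), were called for the difference between the fractions.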

How the data were processed

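Polysomal RNA of 3 LY6C_P and 3 BM_P libraries was compared. The deposited table holds raw counts for 54838 genes in 18 libraries. The authors' processing used STAR 2.5.2a, FastQC, DESeq and DESeq2, per the submitters' processing notes. The program that counted reads and its strand setting are not given in the sources used here, so antisense and overlapping genes are uncertain. Gene names and coordinates came from GENCODE M21 (GRCm38), which matched 54809 identifiers.

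All 18 libraries entered 1 edgeR 4.0.16 model (R 4.3.3) with a mean per group, TMM factors, filterByExpr with a minimum count of 10 (14181 genes) and robust quasi-likelihood F tests, without a block. The adjusted p is Benjamini-Hochberg over all genes tested, with calls under 0.05. A gene with 0 counts in a group is bounded at 3 counts over that group. With 1 to 3 counts the pooled ratio is given with its exact 95% interval. Both cover counting error only.

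Named genes are the 12 largest rises and 12 largest falls with at least 10 counts in both groups, at least 10 CPM and no overlap; the 6 highest genes at 0 counts on either side; up to 4 members of each of 42 gene lists; 11 followed genes; the 8 largest interaction calls each way; and the 10 highest levels. Exceptions are marked in the text, and a few named genes are not reported here. Members and lists were chosen with earlier results of these data known, so counts over them are descriptions. Alternatives were DESeq2 1.42.0, limma 3.58.1 voom, median-ratio factors, other filters, the 6 libraries alone, left-out abundant genes, protein-coding genes alone, thinned counts, a fit blocked on replicate number and the omission of single libraries. On simulated data for LY6C_P minus BM_P, with 13296 genes, 76% of 4-fold and 96% of 16-fold changes were recovered. For the interaction it was 24% and 88%. The changes were placed in 100 genes of each size, all with an expected mean of at least 10 counts in a BM_P library. These rates do not cover genes with fewer counts, or data in which as many genes differ as here. Figures were drawn with matplotlib 3.10.9.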

Additional observations from a re-analysis of the deposited data

Results flagged for a closer look

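Among genes with at least 10 counts over each of the 4 groups, the LY6C minus BM difference was called different between polysomal and total RNA in 12. The 11 given here are the 8 largest positive differences and the 3 negative ones. Over all genes tested, 12 differences were called higher and 36 lower. The filter leaves out genes with few counts in BM total RNA, where a low level makes the difference negative. The signs of these 11 therefore do not show the direction over all genes. The values are log2 differences of polysomal minus total, with the adjusted p of edgeR's interaction test.

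It was positive for the polymerase Polh (3.97, adjusted p = 0.0155), Tnfrsf14 (3.63, 0.0155), the zinc finger gene Zfp626 (3.41, 0.0155), Optn (3.11, 0.0413), mt-Nd5 (2.93, 0.0399), Cfap36 (2.72, 0.0311), Brap (2.32, 0.0155) and Vps35l (2.30, 0.0155). In these 8 genes the BM total libraries lay above the BM_P libraries. It was negative for the chromatin regulator Asxl1 (-2.47, 0.0155), Ncf1 (-2.11, 0.048) and the myosin phosphatase subunit Ppp1r12a (-1.96, 0.048). In these 3 the BM total libraries lay below the BM_P libraries. With polysomal and total libraries of the same cells and number as a block, all 11 were called with the same sign (adjusted p of 5.31e-05 to 0.0258). In BM total RNA 1 CPM was 0.472 to 0.611 counts, and the part of that depth in these differences was not tested.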

How the results depend on the processing

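Counts of genes higher and lower in LY6C_P were within 1.5 times of 2861 and 1592 under every alternative but thinned counts, with 1244 higher, and no filter, with 2557 lower; leaving out 1 library gave 2050 to 2738 higher and 1239 to 1539 lower. The interaction counts (12 higher, 36 lower) moved more. Higher counts were 19 with median-ratio factors, 154 with DESeq2, 4 with voom, 55 without a filter, 3 in the compared libraries alone, 2 thinned, 30 with the block on library number, 62 with the replicate block of cells and number (added after seeing the data) and 0 to 11 without 1 library. Lower counts were 15 with median-ratio factors, 11 with voom, 73 with the filter of 50 counts, 1 in the compared libraries alone, 2 thinned, 102 with the block of cells and number and 1 to 37 without 1 library. With the replicate block, 3041 genes were higher and 1837 lower. Same-numbered LY6C_P and BM_P libraries deviated with r = -0.02 and 0.03, and the same-numbered fractions of LY6C with r = 0.60 to 0.70. The same-numbered fractions of BM also had r near 0 (0.03, 0.01 and 0.00). These correlations therefore cannot settle whether the numbers pair LY6C_P with BM_P. Of 185 named genes 171 were called and 151 kept direction and call under every alternative that tested them. Calls were gained by 9 genes: Ccr2, S100a8, S100a9, Ly6c1 (as reported above), Arg1 (block, adjusted p = 0.00547; no filter), Nos2 (no filter, 3.86e-37), Ncf1 (DESeq2, 0.0209), Asxl1 (lower in 3 settings) and Zfp626 (lower in 6 settings). Signs turned for 5 uncalled genes: Polh (-0.06 with the filter of 50, -0.03 in the compared libraries alone, -0.05 coding, -0.12 thinned, -0.23 to 0.53 without 1 library), Ppp1r12a (-0.08, -0.05, -0.08 and -0.15 in that order, -0.02 to 0.18 without 1 library), Vps35l (-0.07 thinned), Zfp626 (-1.33 to 0.02 without 1 library) and Myh9 (-0.27 to 0.16 without 1 library). The cause was not tested. BM_P depth limits low genes.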

Other observations

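Further gene groups of polysomal RNA were read. Of 23 cholesterol synthesis genes tested, 14 were higher and 0 lower (median log2 difference 1.92). Insig1, which senses sterols, had 18.5, 31.1 and 10.3 CPM in LY6C_P and 0.285, 2.89 and 3.87 CPM in BM_P (log2 difference 3.18 ± 0.77, adjusted p = 0.00507). Of 20 proteasome genes 10 were higher and 0 lower (median 1.33), or 5 higher without BM_P library 3 and 5 higher and 1 lower with thinned counts. Psmb8, a subunit of the immunoproteasome, had 24.5, 28.2 and 63.1 CPM in LY6C_P and 6.28, 2.89 and 5.27 CPM in BM_P (log2 difference 2.95 ± 0.46, adjusted p = 6.53e-05). Of 7 genes of the phagocyte NADPH oxidase 4 were higher and 0 lower (median 1.46), with the membrane subunit Cyba at 161, 187 and 331 CPM in LY6C_P and 30.8, 34.7 and 22.5 CPM in BM_P (log2 difference 2.95 ± 0.35, adjusted p = 4.53e-06). Of 19 iron and heme genes 5 were higher and 5 lower. Alas1, the widely expressed enzyme that starts heme synthesis, was higher (log2 difference 3.29 ± 0.42, adjusted p = 7.87e-06), and the erythroid one, Alas2, was lower. Fech, another member of the list, was also lower (log2 difference -2.82).

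LY6G_P, the polysomal RNA of the sorted LY6G cells, shares the BM_P libraries as its comparison, so the 2 sets of differences are not independent and are given side by side. Erythroid genes had a median log2 difference of -8.91 in LY6C_P and -10.55 in LY6G_P against BM_P. Lysosomal genes had 2.73 and 2.68, inflammatory cytokines 5.25 and 5.30, and cell division genes -0.51 and -1.53, in the same order. Genes of monocyte and macrophage identity had 2.59 and 2.65, and those of MDSC suppressive function 2.51 and 2.46. Primary granule genes had 1.12 and -1.44. Where genes with 0 counts take their bound, the LY6C_P medians were 2.32 for inflammatory cytokines and 0.51 for primary granule genes. Without LY6C_P library 3 the primary granule median in LY6C_P was -0.70. Between LY6G_P and LY6C_P themselves, edgeR called 0 genes, with 833 at an unadjusted p under 0.05, and DESeq2 and voom also called 0. Without a filter on low counts 88 were called.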
